A study of Mus musculus with 12 samples.

Results

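Acetylcholine in the forebrain is made by a small set of projection neurons, among them those of the medial septum, the nucleus that lies beside the lateral septum and sends cholinergic fibres to the hippocampus. Such neurons take up choline, join it to an acetyl group, load the product into vesicles and, after release, rely on an esterase that splits it. They depend on nerve growth factor in adult life, and their identity is set by homeodomain transcription factors. The 9 genes described here, chosen by symbol from the deposited gene table of 54532 genes, cover these steps: Chat, Slc5a7 and Slc18a3 (synthesis, choline uptake and vesicle loading), Ache (breakdown), the neurotrophin receptor gene Ngfr, the transcription factor genes Lhx8, Gbx1 and Isl1, and Ecel1, which encodes a neuronal membrane protein of the metallopeptidase family.

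The libraries were bulk RNA sequencing of wild-type mouse brain tissue labelled lateral septum. The 6 saline and 6 CFA libraries, all labelled day 3, came from mice injected with saline or with CFA. CFA commonly stands for complete Freund's adjuvant, an oil emulsion used to set up long-lasting inflammation. The labels give neither age, sex nor the site of injection, and none ties the libraries to separate animals. The p-values therefore reflect only the spread between these samples, part of which may be technical. The series was made to study microglial TIA1 in pain, and the saline libraries served as controls.

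The reads recovered from the deposited values summed to 33.6 to 39.2 M per library. Defining genes of lateral septum neurons were present in all libraries, such as the channel gene Trpc4 (12.6 to 18.4 FPKM) and the neurotensin gene Nts (21.6 to 44.4 FPKM), while 1 gene of that list, Esr1, stayed below 1 FPKM in every library. FPKM is a fragment count divided by gene length and library size. Neighbouring tissue was present as well and differed between libraries. The summed level of 16 genes of striatal projection neurons ranged from 200.4 to 336 FPKM in saline and from 199 to 582 FPKM in CFA. That of 7 genes of cortical and hippocampal excitatory neurons ranged from 7.95 to 98.6 FPKM in saline and 9.89 to 113 FPKM in CFA. The summed level of 7 choroid plexus genes reached 2685 FPKM in saline against at most 108 FPKM in CFA, because of saline 3 and saline 5, in which the choroid transcript Ttr stood at 2259 and 701 FPKM. The female-specific transcript Xist was high in 2 saline and 5 CFA libraries. The groups were thus unequal in this transcript, and a difference by sex cannot be fully told apart from one by CFA. Of 8 genes that mark other cholinergic cell groups, 7 were below 1 FPKM throughout, and the motor neuron gene Mnx1 was at 0 in all 12 libraries. The exception, Tac2, ran from 0.905 to 3.53 FPKM and passed the filter on low values described below. In whole tissue, fewer cells of a type and less RNA per cell cannot be told apart.

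Chat (ENSMUSG00000021919, chromosome 14, 32408203 to 32465989, minus strand) and Slc18a3 (ENSMUSG00000100241, chromosome 14, 32462438 to 32464850, minus strand) form a single locus on the mouse build mm10, in which the whole of Slc18a3 lies inside the bounds of Chat on the same strand. Their annotated exons share 0 bases. Slc5a7 (ENSMUSG00000023945) is on chromosome 17, 54273590 to 54299034, minus strand. Bases upstream of the RefSeq starts of these 3 genes (GRCm38.p6, minus strand, printed 5′ to 3′ along the gene) are shown because the levels of the 3 genes varied together across libraries, as described further on. Stretches that belong to an annotated exon were left out. The Chat stretch therefore ends at base 81 before the start, whereas the Slc18a3 and Slc5a7 stretches end at base 1. Capitals mark matches, on either strand, to the GC box GGGCGG or to the letters TATAAA of a TATA box.
Chat, chr14:32465990-32466159: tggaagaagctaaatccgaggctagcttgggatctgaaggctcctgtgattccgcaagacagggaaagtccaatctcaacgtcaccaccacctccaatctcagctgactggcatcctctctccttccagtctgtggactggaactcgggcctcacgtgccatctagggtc
Slc18a3, chr14:32464851-32465041: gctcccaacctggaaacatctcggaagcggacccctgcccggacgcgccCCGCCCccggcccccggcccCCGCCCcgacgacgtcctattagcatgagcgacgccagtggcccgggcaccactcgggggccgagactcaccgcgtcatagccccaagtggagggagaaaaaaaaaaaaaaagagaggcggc
Slc5a7, chr17:54299035-54299284: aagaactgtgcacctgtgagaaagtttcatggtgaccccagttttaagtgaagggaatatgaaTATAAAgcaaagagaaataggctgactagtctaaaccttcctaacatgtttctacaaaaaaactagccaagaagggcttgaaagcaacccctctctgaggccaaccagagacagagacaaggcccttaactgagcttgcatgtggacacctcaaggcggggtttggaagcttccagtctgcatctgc
The Slc18a3 stretch held 2 GC boxes and was 67.5% G and C, the Slc5a7 stretch held 1 TATAAA and was 45.6% G and C, and the Chat stretch held neither and was 54.7% G and C. The full 250 bases before the Chat start, exon bases included, held neither as well. Of the 9 genes, 8 had a window of 250 bases before the start in the RefSeq table. GGGCGG occurred in 3 of these 8 windows (Slc18a3, Ache and Ngfr) and in 32.7% of all 32851 windows of that length, and TATAAA in 1 of 8 and in 12.4%. Among the 9741 tested genes with a window, the shares were 65.0% for GGGCGG and 7.57% for TATAAA. The letters TAATTA, a core bound by many LIM homeodomain proteins and equal to their own reverse complement, occurred in 0 of 8 windows, in 4.84% of all windows and in 2.91% of these tested genes. A match is a run of letters and no measured binding site.

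All 9 genes reached at least 1 FPKM in each of the 12 libraries, so all passed the filter on low values (at least 1 FPKM in at least 6 libraries) and were among the 13345 genes tested. By mean level the order was Ecel1 (31.0 FPKM), Ache (25.4), Ngfr (5.52), Isl1 (5.27), Slc5a7 (4.39), Lhx8 (4.34), Slc18a3 (3.40), Gbx1 (2.25) and Chat (1.99). Ecel1 was above Ache, and Ache above Ngfr, in 12 of 12 libraries. Lhx8 was above Slc18a3 in 11 of 12 libraries (mean log2 ratio 0.38, SD 0.32) and Slc18a3 above Gbx1 in 10 of 12 (0.63, SD 0.44). For the other neighbours the mean log2 ratio was smaller than its SD. Ngfr was above Isl1 in 7 of 12 libraries (0.01, SD 0.49) and Isl1 above Slc5a7 in 9 of 12 (0.28, SD 0.33). Slc5a7 was above Lhx8 in 8 of 12 (0.02, SD 0.26) and Gbx1 above Chat in 7 of 12 (0.13, SD 0.39). The order of the levels was not tested. Slc18a3 was above Chat in 11 of 12 libraries.

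The read depth behind these levels was moderate. Chat rested on 199 to 464 recovered reads per library and Slc18a3 on 153 to 477, against 3142 to 4553 for Ecel1. Counting error alone would give a coefficient of variation of 5.40% for Chat, where the libraries showed 24.5%. For Gbx1 these values were 5.91% and 38.0%, and for Ache, the steadiest of the 9, 1.52% and 11.6%. For all 9 genes the spread between libraries exceeded counting error. On the log2(FPKM + 1) scale the standard deviation across the 12 libraries was 0.39 for Ngfr, higher than that of 96.2% of all tested genes, and 0.37 for Gbx1 and 0.35 for Slc18a3, against a median of 0.121 over all tested genes. Ache (0.16) and Isl1 (0.17) varied least.

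**Figure D1:**
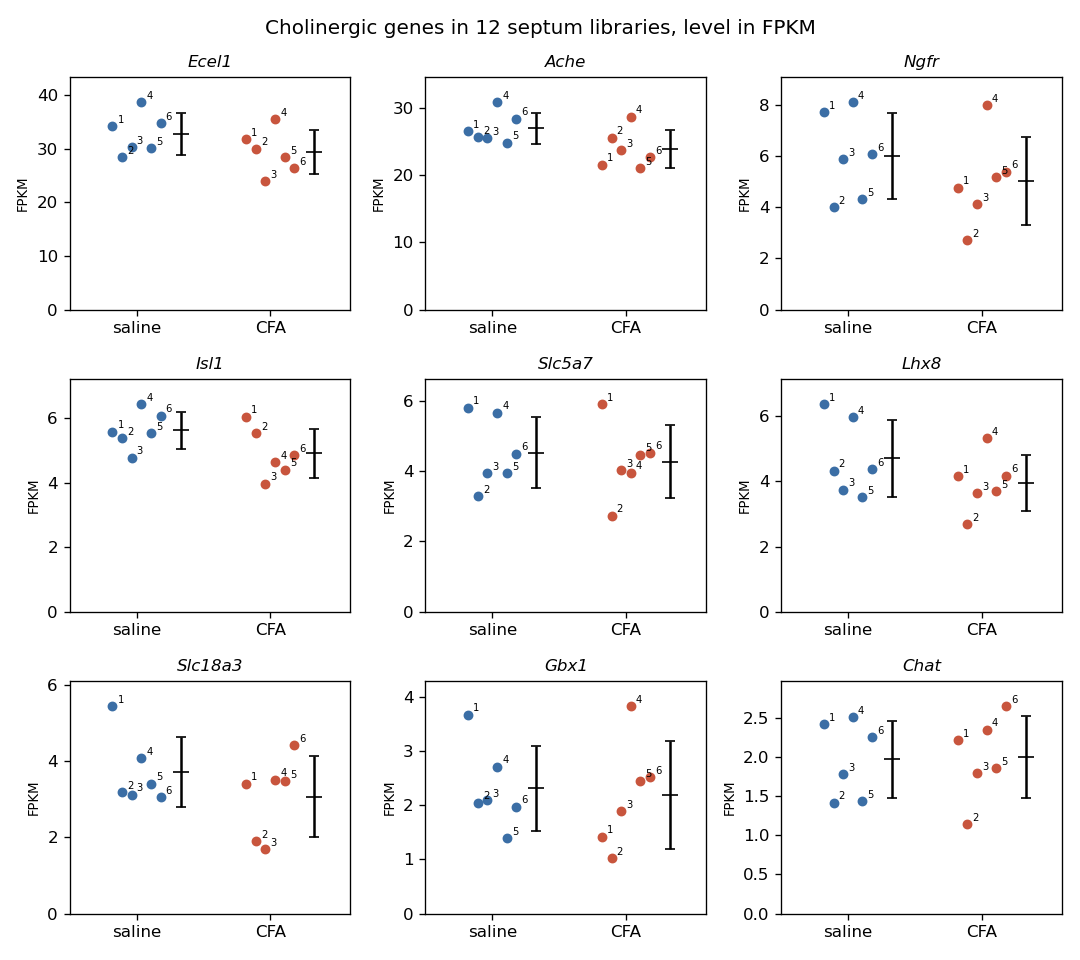
Level in FPKM (y axis, from 0) of each of the 9 genes in the 6 saline (blue) and 6 CFA (red) libraries; each point is 1 library with its replicate number, and bars are the group mean ± SD. The groups overlap for all 9 genes, and CFA 2 holds the lowest level of 5 of them.

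The first comparison asked whether the cholinergic genes differed between CFA and saline. None of the 9 passed the threshold of 0.05 by limma with Benjamini-Hochberg adjustment over all 13345 tested genes, of which 4 (0.0300%) passed. At an unadjusted p under 0.05 there was 1 of the 9, Ache, where the share over all tested genes was 7.67%. Its value was lower in CFA, as for 4.56% of all tested genes at that p and for 0.0150% past the adjusted threshold. The fold change was negative for 8 of the 9, with a median of -0.17 on the log2(FPKM + 1) scale, beside 52.0% negative and a median of -0.00427 over all tested genes. Many of the 9 vary together across libraries, so these 8 are not separate observations. General neuronal markers were negative too, 12 of 12 with a median of -0.07, of which Syn1, Stmn2 and Eno2 had an unadjusted p under 0.05 and none passed over all genes. Of 8 lateral septum genes 6 were negative (median -0.14), and all 6 oligodendrocyte genes were positive (median 0.15), none past the threshold. The part of these markers in the values of the 9 genes was not tested beyond the covariate fits given further on. No gene of the 9 had groups that did not overlap, as 0.495% of all tested genes did.

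None of the 3 genes that make and package acetylcholine passed the threshold. Chat, choline acetyltransferase, ran from 1.42 to 2.51 FPKM in saline (median 2.02) and from 1.14 to 2.65 FPKM in CFA (median 2.04). Both the lowest and the highest library belonged to CFA, CFA 2 and CFA 6. Its log2 fold change was 0.01 (SE 0.13, limma adjusted p = 0.989), with a 95% interval that allows a ratio, CFA over saline, of 0.824 to 1.23 on the FPKM + 1 scale. Slc5a7, the high-affinity choline transporter, ran from 3.28 to 5.80 FPKM in saline (median 4.22) and from 2.73 to 5.90 FPKM in CFA (median 4.24). Here too CFA held both ends, CFA 2 and CFA 1. The log2 fold change was -0.07 (SE 0.14, adjusted p = 0.944), a ratio of 0.770 to 1.18.

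Slc18a3, the vesicular acetylcholine transporter, averaged 3.72 ± 0.927 FPKM in saline and 3.07 ± 1.06 FPKM in CFA (SD, n = 6 each). The saline libraries ran from 3.06 to 5.45 FPKM with a median of 3.30, and the CFA libraries from 1.69 to 4.43 FPKM with a median of 3.45, so the median was higher in CFA while the mean was lower. CFA 2 (1.91 FPKM) and CFA 3 (1.69 FPKM) were below every saline library, and saline 1 was above every CFA library. Its log2 fold change of -0.24 was the most negative of the 9 (SE 0.17, adjusted p = 0.787), with an interval that allows ratios of 0.656 to 1.10. The difference lay inside the spread of the libraries.

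Ache, acetylcholinesterase, averaged 27.0 ± 2.28 FPKM in saline and 23.9 ± 2.87 FPKM in CFA (SD, n = 6 each). The saline libraries ran from 24.8 to 30.9 FPKM (median 26.1) and the CFA libraries from 21.0 to 28.7 FPKM (median 23.2). Of the CFA libraries 4 were below every saline library, whereas CFA 2 and CFA 4 stood within the saline range. The log2 fold change was -0.17 (SE 0.07, unadjusted p = 0.0370, adjusted p = 0.632), a ratio of 0.793 to 0.992. Ache (ENSMUSG00000023328, chromosome 5, 137287519 to 137294466, plus strand) shares 98 exon bases with Gm42456 on the opposite strand, which averaged 1.01 FPKM, and the strand setting of the counting is not given. Unlike the 3 genes above, Ache is also transcribed in many neurons that make no acetylcholine.

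Ngfr, the low-affinity neurotrophin receptor p75 that marks basal forebrain cholinergic neurons, ran from 4.00 to 8.12 FPKM in saline (median 5.97) and from 2.72 to 7.98 FPKM in CFA (median 4.97). In CFA, 5 of 6 libraries were below the saline median, and CFA 4, with 7.98 FPKM, was above it. Ngfr (ENSMUSG00000000120, chromosome 11, 95568818 to 95587735, minus strand) stood at -0.23 on the log2 scale, CFA minus saline (SE 0.20, adjusted p = 0.826). The interval of its ratio, 0.635 to 1.14, was the widest downwards of the 9. Fibroblasts and Schwann cells can also express Ngfr. The summed level of 7 meningeal and perivascular fibroblast genes was 15.0 to 18.3 FPKM in saline and 15.1 to 17.8 FPKM in CFA, and 4 of 5 Schwann cell genes were below 1 FPKM in every library.

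None of the 3 transcription factor genes passed the threshold. Lhx8, a LIM homeodomain gene needed for forebrain cholinergic neurons to form (ENSMUSG00000096225, chromosome 3, 154306294 to 154330659, minus strand), ran from 3.51 to 6.38 FPKM in saline (median 4.35) and from 2.69 to 5.33 FPKM in CFA (median 3.94). Saline 1 and saline 4 were above all CFA libraries, and the log2 fold change was -0.20 (SE 0.14, adjusted p = 0.779). Isl1, a second LIM homeodomain gene (ENSMUSG00000042258, chromosome 13, 116298281 to 116309689, minus strand), ran from 4.78 to 6.44 FPKM in saline (median 5.56) and from 3.97 to 6.06 FPKM in CFA (median 4.75). In CFA, 3 libraries were below the saline range, and the log2 fold change was -0.17 (SE 0.09, adjusted p = 0.682). Gbx1, a homeobox gene (ENSMUSG00000067724, chromosome 5, 24502757 to 24527202, minus strand), ran from 1.39 to 3.67 FPKM in saline (median 2.07) and from 1.02 to 3.83 FPKM in CFA (median 2.17). Its groups covered nearly the same range, and the log2 difference was -0.08 (SE 0.20, adjusted p = 0.956).

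Ecel1 (ENSMUSG00000026247, chromosome 1, 87147655 to 87156521, minus strand) averaged 32.7 ± 3.84 FPKM in saline and 29.3 ± 4.08 FPKM in CFA (SD, n = 6 each). The saline libraries ran from 28.4 to 38.7 FPKM (median 32.2) and the CFA libraries from 23.9 to 35.5 FPKM (median 29.2). CFA 3 and CFA 6 were below all saline libraries. This gave -0.16 on the log2 scale (SE 0.09, limma adjusted p = 0.748).

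**Figure D2:**
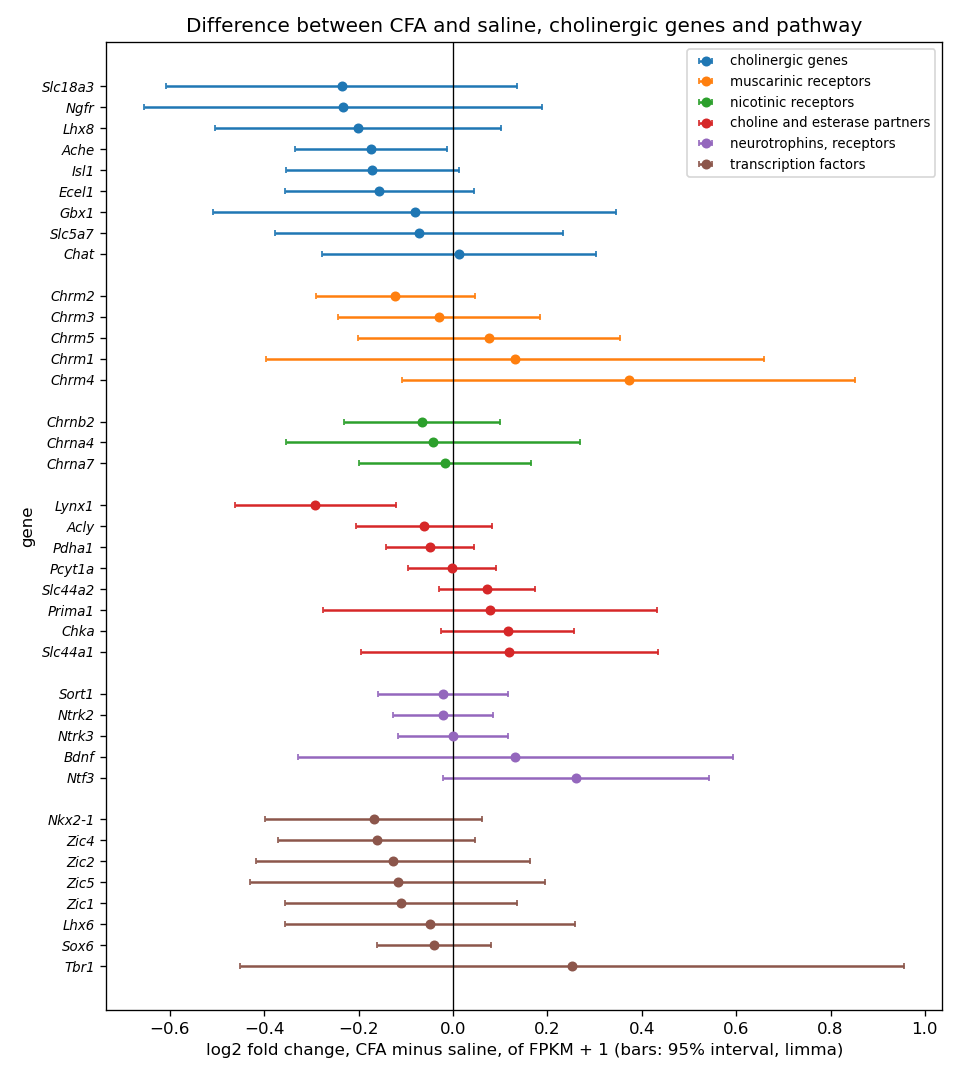
Log2 fold change of FPKM + 1, CFA minus saline (x axis), with the 95% interval from limma, for the 9 cholinergic genes and tested genes of 5 related lists (y axis, coloured by list). All intervals of the 9 cross 0 except that of Ache, whose upper end is -0.01.

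The wider pathway was read from lists of receptors, choline handling, neurotrophins and transcription factors, of which no gene passed the threshold by limma over all genes. All 5 muscarinic receptor genes were tested. Of these, 3 had a positive and 2 a negative log2 fold change, and their median was 0.08. Chrm4, the M4 receptor of striatal neurons, averaged 7.62 ± 3.40 FPKM in saline and 9.98 ± 3.14 FPKM in CFA (SD, n = 6 each; 0.37, adjusted p = 0.754). Chrm2, the M2 autoreceptor of cholinergic neurons, averaged 9.31 and 8.47 FPKM (-0.12, adjusted p = 0.766), and Chrm5 1.11 and 1.27 FPKM (0.08, adjusted p = 0.937). Of 13 nicotinic subunit genes only 3 reached the filter, and 9 were below 1 FPKM in every library. Those tested were Chrnb2 (12.9 FPKM in saline, 12.3 in CFA), Chrna4 (6.23 and 6.07) and Chrna7 (2.07 and 2.04), with log2 fold changes of -0.07, -0.04 and -0.02.

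Of 12 genes of choline uptake, choline kinase, acetyl-CoA supply and esterase partners, 8 were tested, 4 positive and 4 negative. Lynx1, which encodes a membrane-anchored modulator of nicotinic receptors, averaged 68.9 ± 5.82 FPKM in saline and 56.3 ± 6.52 FPKM in CFA (SD, n = 6 each). Its saline libraries ran from 59.4 to 74.2 FPKM and its CFA libraries from 44.9 to 65.2 FPKM, and the log2 fold change was -0.29 (SE 0.08, unadjusted p = 0.00260, limma adjusted p = 0.308). Chka, choline kinase alpha, had 0.12 (adjusted p = 0.730) and the transporter-like gene Slc44a2 0.07 (adjusted p = 0.770). Butyrylcholinesterase (Bche, 0.525 to 1.29 FPKM, named after its values were seen) did not reach the filter.

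Among 8 neurotrophin and receptor genes 6 were tested, 3 positive and 3 negative. Ntf3, neurotrophin 3, had 0.26 (adjusted p = 0.684) and Bdnf 0.13 (adjusted p = 0.933). Of 10 other transcription factor genes of the ventral forebrain and septum 9 were tested, 8 negative and 1 positive, with a median of -0.11. Zic4 had -0.16 (adjusted p = 0.755), Nkx2-1, which specifies the ventral zone that gives rise to cholinergic neurons, -0.17 (adjusted p = 0.765), and Zic1 -0.11 (adjusted p = 0.861). Of 7 genes of other medial septum neurons 6 were tested, 4 negative and 2 positive. Pvalb, the calcium buffer of GABA projection neurons, averaged 9.85 ± 1.61 FPKM in saline and 7.81 ± 2.09 FPKM in CFA (SD, n = 6 each; -0.33, adjusted p = 0.666), the potassium channel gene Kcnc1 had -0.14 (adjusted p = 0.649) and the galanin gene Gal 0.26 (adjusted p = 0.761).

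The second question was whether the 9 genes varied together across libraries. Over the 12 libraries Chat went with Ngfr (Pearson r = 0.830, adjusted permutation p = 0.00816; Spearman rho = 0.804, adjusted p = 0.0149) and with Slc5a7 (r = 0.806, adjusted permutation p = 0.00816; rho = 0.811, adjusted p = 0.0149). It also went with Lhx8 (r = 0.760, adjusted permutation p = 0.0164; rho = 0.727, adjusted p = 0.0231), Gbx1 (r = 0.703, adjusted permutation p = 0.0339; rho = 0.734, adjusted p = 0.0231) and Slc18a3 (r = 0.656, adjusted permutation p = 0.0462; rho = 0.755, adjusted p = 0.0231). The unadjusted permutation p-values of these 5 r ran from 0.00089 to 0.0193, two-sided, with adjustment over the 12 relations computed. Without saline 2 and CFA 2, the libraries farthest from the median of Chat, r was 0.663 for Ngfr, 0.581 for Slc5a7, 0.732 for Lhx8, 0.601 for Gbx1 and 0.547 for Slc18a3. None of the 5 then passed (lowest adjusted permutation p = 0.158), in a test with 10 libraries in place of 12. The libraries left out were picked by their level of Chat. This narrows the range of Chat, which can lower r by itself. The r of Lhx8 changed little, while those of Slc5a7 and Ngfr fell most. How large a share of all tested genes has such r with Chat was not computed.

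Within groups the same 5 relations were positive in both. Within saline r was 0.962 for Ngfr, 0.917 for Slc5a7, 0.804 for Lhx8, 0.746 for Gbx1 and 0.584 for Slc18a3 (exact permutation, adjusted p = 0.0167 for Ngfr and 0.0611 to 0.300 for the others). Within CFA it was 0.822, 0.737, 0.868, 0.692 and 0.802 in the same order, none past the threshold (exact permutation, adjusted p = 0.244 to 0.267). The remaining 3 genes did not go with Chat over all libraries: r was 0.401 for Ecel1, 0.175 for Ache and 0.125 for Isl1 (adjusted permutation p = 0.340, 0.633 and 0.696; rho 0.420, 0.224 and 0.238). Within saline their r with Chat was 0.930, 0.80 and 0.598, and within CFA 0.103, -0.132 and -0.105; the difference between groups was not tested.

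**Figure D3:**
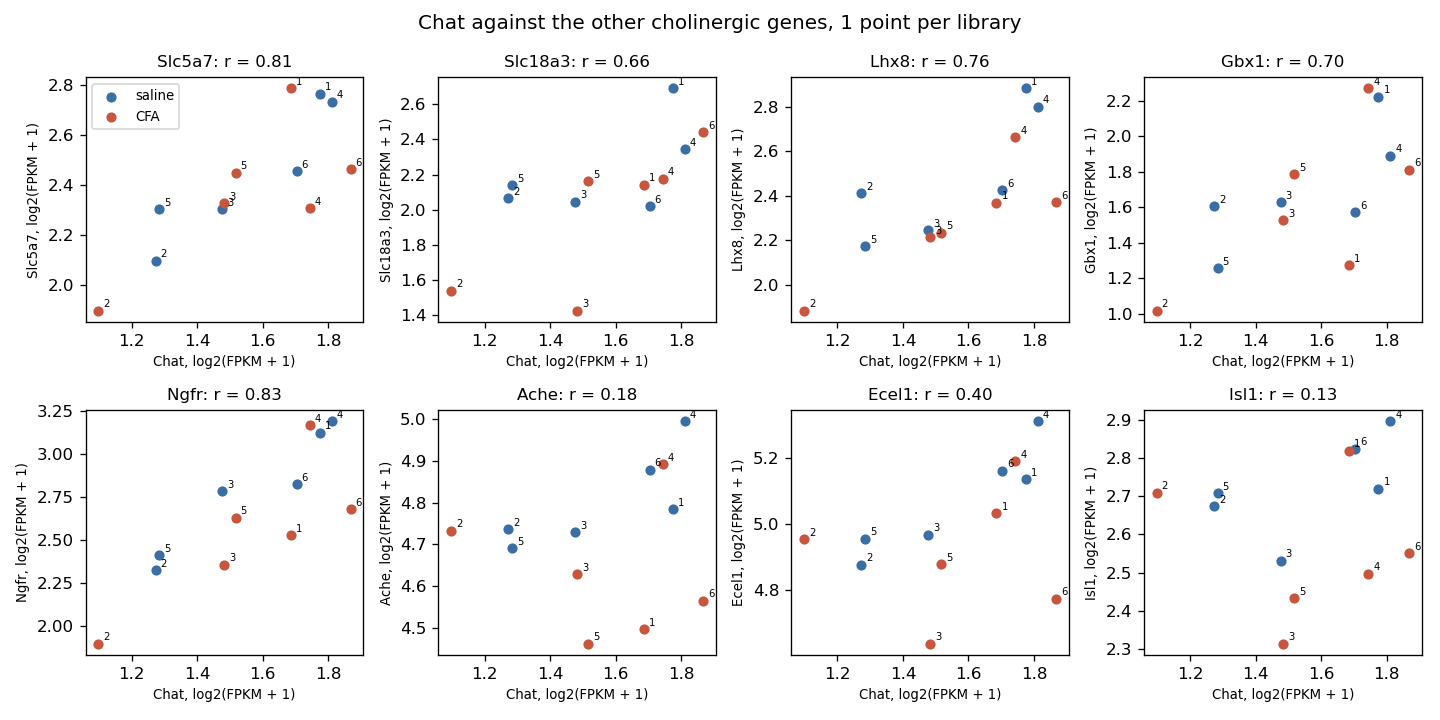
Log2(FPKM + 1) of Chat (x axis) against each of the other 8 genes (y axes), 1 point per library with its replicate number, saline blue and CFA red; r is over all 12 libraries. Ngfr, Slc5a7 and Lhx8 climb with Chat from CFA 2 at the lower left, whereas Ache and Isl1 do not.

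Taken over all 36 pairs of the 9 genes, r was positive for 34, with a median of 0.58. The share of positive pairs among all tested genes was not computed. The closest pair was Lhx8 with Ngfr (r = 0.888), followed by Gbx1 with Ngfr (0.860). Split after the values were seen into Ache, Ecel1 and Isl1 on one side and the other 6 on the other, the 15 pairs among the 6 had r of 0.439 to 0.888, the 3 pairs among Ache, Ecel1 and Isl1 0.438 to 0.723, and the 18 mixed pairs -0.189 to 0.666. Library by library, CFA 2 held the lowest level of 5 genes, CFA 3 of 3 and CFA 5 of 1. Saline 4 held the highest level of 4 genes and was among the 3 highest libraries for all 9. Saline 1 held 2 of the highest levels, and CFA 1, CFA 4 and CFA 6 held 1 each.

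Markers of neighbouring tissue were set beside Chat in the same 12 relations. The mean of the striatal list gave r = 0.517 with Chat (adjusted permutation p = 0.168; rho = 0.580, adjusted p = 0.105) and 0.543 within saline and 0.581 within CFA. The pan-neuronal list mean gave 0.339 (adjusted permutation p = 0.423; rho = 0.399), the lateral septum list mean -0.245 (adjusted permutation p = 0.540; rho = -0.175) and the choroid plexus list mean -0.251 (adjusted permutation p = 0.540; rho = -0.231). None passed. The striatum holds cholinergic interneurons of its own, and its projection neuron genes were all 16 positive between groups (median log2 fold change 0.38, none past the threshold). Adjusted for the mean of the striatal list, Chat had a log2 fold change of -0.09, Slc5a7 -0.24 (limma unadjusted p = 0.0281) and Slc18a3 -0.41 (unadjusted p = 0.0115), and none of the 9 passed over all genes (lowest adjusted p = 0.466). Adjusted for the pan-neuronal mean, Ache had -0.079, Lhx8 -0.033, Ngfr -0.024 and Chat 0.12, while Isl1 had -0.215. None of the 9 then had an unadjusted limma p under 0.05. With either list mean Ache was less negative than without it (-0.117 with the striatal mean). Isl1 was more negative with either (-0.213 with the striatal mean). Adjusted for Xist, Ngfr had -0.084 and Ache -0.12, while Slc18a3 had -0.327 and Isl1 -0.217, again with none under 0.05. The part of tissue makeup in these differences was not tested further.

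The genes whose pattern was most like that of the acetylcholine genes were ranked by Pearson r, over the 12 libraries, with the mean log2(FPKM + 1) of Chat, Slc5a7 and Slc18a3. Of the other 6 cholinergic genes, Ngfr (r = 0.823) ranked 13th and Lhx8 (0.819) 15th among 13345 tested genes, followed by Gbx1 (0.669), Ecel1 (0.492), Isl1 (0.318) and Ache (0.112). The ranks count Chat, Slc5a7 and Slc18a3 too, which rank first because they form the mean. Outside the 9, the closest were Hrh3, the histamine H3 receptor (r = 0.887), Th, tyrosine hydroxylase (0.880), and Entpd3, an ectonucleotidase (0.847). Lingo3 (0.839), L3mbtl1 (0.838), the cytoskeletal regulator gene Elmo1 (0.833), Sertad4 (0.833), Itgb1bp1 (0.827), Fbxl18 (0.817) and Trappc12 (0.815) came next. The most opposite were Bbox1, of carnitine synthesis (-0.936), Stoml3 (-0.920), Sptlc2, a subunit of serine palmitoyltransferase (-0.887), Lrrc74b (-0.873) and Frmpd2 (-0.869). These values are descriptions, drawn from the ends of 13345 correlations over the same 12 libraries, whose tissue makeup differed. Over all 13345 genes the median r with this mean was -0.0089 and the 95th percentile of absolute r was 0.619. An r over 0.8 was found for 23 genes. Among them were Ngfr and Lhx8, and also Slc5a7 (0.902), Chat (0.895) and Slc18a3 (0.890), whose r is high because they form the mean.

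Read against the lists, r was positive for striatal markers and negative for markers of ventricle-lining (ependymal) cells and of oligodendrocytes. Genes of a list may vary together, so their signs are not separate observations. Markers of septal neurons were mixed. Of 6 genes of other medial septum neurons 3 had a positive and 3 a negative r (median -0.05). Of 8 lateral septum genes 3 were positive and 5 negative (median -0.33). Pan-neuronal genes were 10 positive and 2 negative (median 0.18). All 16 striatal genes had a positive r (median 0.59), and all 7 ependymal genes a negative one (median -0.72; Ccdc153 -0.825). All 6 oligodendrocyte genes were negative (median -0.48), as was the median of 6 astrocyte genes (-0.47). Among transcription factor genes, chosen here after their values were seen, Lhx6 (0.63), Sox6 (0.58) and Nkx2-1 (0.40) were positive, while Zic1, Zic2, Zic4 and Zic5, which septal neurons and their progenitors express, ranged from -0.67 to -0.58. Of the 3 nicotinic subunit genes tested, Chrna7 had 0.61, Chrnb2 -0.11 and Chrna4 -0.36. The part of tissue makeup in the cholinergic levels was not tested.

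**Figure D4:**
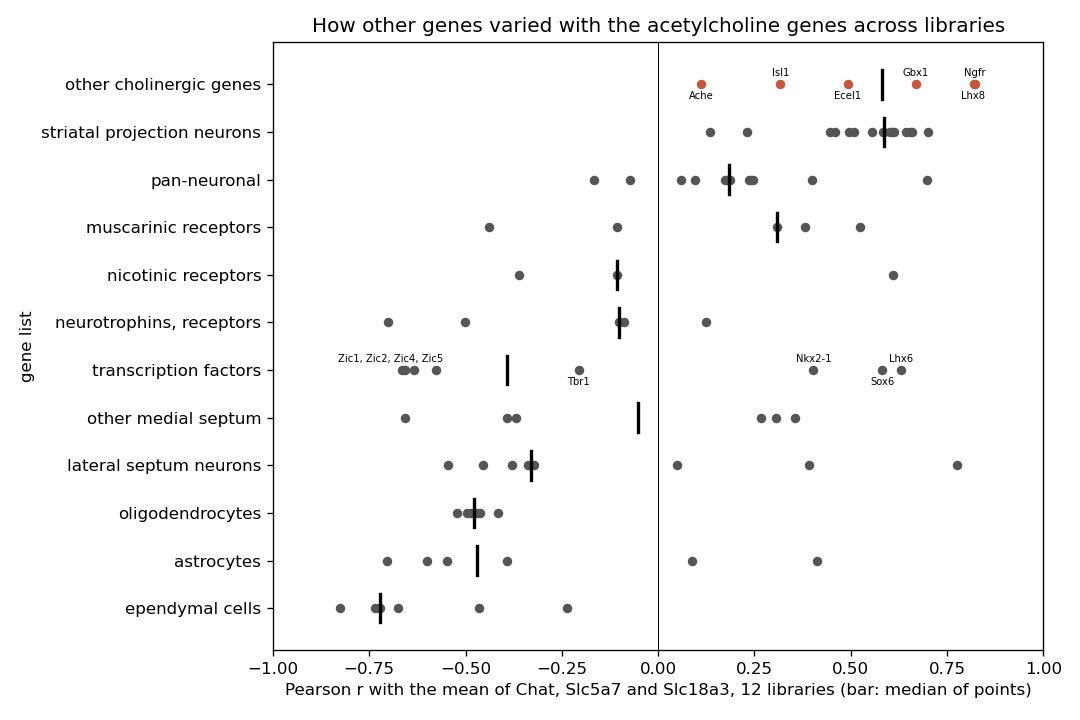
Pearson r over the 12 libraries with the mean log2(FPKM + 1) of Chat, Slc5a7 and Slc18a3 (x axis) for the other 6 cholinergic genes (red) and tested genes of 11 lists (grey; y axis), with the median of the points shown as a bar. Ngfr and Lhx8 lie near 0.82 and all ependymal genes below 0.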

How the data were processed

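The authors deposited FPKM, 1 column per library, with the gene length in bases that they divided by. Alignment used HISAT2 2.0.5 and the build mm10, per the submitters' processing notes. How reads were counted, with which strand setting and annotation, is not given in the sources used here. Trizol-extracted RNA (0.2 µg) gave paired reads of 150 bases, per the labels' protocols. Columns were tied to libraries by name. A further 6 columns in a separate table matched no sample and were not used. FPKM times length stepped in whole reads (100% within 0.01 read), which gave the recovered reads, 33.6 to 39.2 M per library. Coordinates of all 9 genes equal those of GENCODE M21 (GRCm38); upstream sequences are from RefSeq (GRCm38.p6).

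Genes with at least 1 FPKM in at least 6 libraries were tested on log2(FPKM + 1) in R 4.3.3 with limma 3.58.1 (two-sided, eBayes, mean-variance trend) and Benjamini-Hochberg adjustment over 13345 genes (threshold 0.05). This scale understates the change of low genes. Correlations over 12 libraries used 100000 permutations, and those within groups all 720 orders. Of these steps, only the main limma fit was tested on simulated data. Other settings were the pseudocount, filter, scaling, variance model, limma's voom on recovered reads scaled to library size (added after seeing the data), a replicate block, 3 covariates and left-out libraries. The 9 genes and the lists were chosen with earlier results of these data known. Beside the 9, the text names, per pathway list, the 3 genes with the smallest p and any past the threshold, and the 10 most similar and 5 most opposite genes, passing over Gm-numbered and Rik symbols; some genes of the lists are counted but not reported here by name or in figures. No library was taken as a repeat deposit: in the most alike pair, saline 4 with saline 6, chi-square over genes with at least 10 reads came to 6.78 times its degrees of freedom.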

Additional observations from a re-analysis of the deposited data

Results flagged for a closer look

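In 5 of 92 groups of 6 libraries examined (gene by group, plus 4 list means), 1 library stood far from the other 5, with a gap to the nearest that exceeded Dixon's critical share of the group's range; chance gives such a gap in about 1 group in 20. None of the 5 concerned the 9 cholinergic genes themselves, and 4 of them came from saline 1. Itgb1bp1 and Sptlc2 were examined because of their extreme r with the mean of Chat, Slc5a7 and Slc18a3. That mean was highest in saline 1, so their choice favoured a flag there. Chrm4 was 14.4 FPKM in saline 1 and 5.45 to 7.48 FPKM in the other saline libraries. Zic1 was 82.5 FPKM in saline 1 against 106.5 to 116 FPKM in the other 5, Itgb1bp1 was 5.92 FPKM against 3.80 to 4.26 FPKM, and Sptlc2 was 5.32 FPKM against 5.96 to 6.18 FPKM. Chrna4 was 8.87 FPKM in saline 3, where the other saline libraries held 5.15 to 6.10 FPKM.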

How the results depend on the processing

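None of the 9 genes passed the threshold in limma under any of 26 alternatives (lowest adjusted p = 0.166, for Ache without CFA 4). At an unadjusted p under 0.05 there were 0 to 3 of 9, with Ache among them in 15 of the 26. There were 0 genes with TPM, quantile normalization, Xist or the pan-neuronal mean. The count was also 0 when saline 4, saline 6, CFA 3, CFA 5 or CFA 6 alone was left out. There were 3 with the replicate block (Ache, Ecel1, Isl1), with the striatal mean (Slc5a7, Slc18a3, Isl1) or without saline 3 and saline 5 (Ache, Lhx8, Isl1). Of the 9, 6 kept a negative sign throughout: Slc18a3 (-0.41 to -0.12), Ache (-0.23 to -0.08), Ecel1 (-0.21 to -0.10), Lhx8 (-0.34 to -0.03), Ngfr (-0.36 to -0.02) and Isl1 (-0.22 to -0.12). The other 3 turned. Leaving out 1 library gave -0.048 to 0.11 for Chat, -0.15 to 0.023 for Slc5a7 and -0.21 to 0.039 for Gbx1. Adjusted for Xist, Slc5a7 had 0.017 and Gbx1 0.029. Gbx1 had 0.21 adjusted for the pan-neuronal mean. Chat had -0.094 adjusted for the striatal mean and -0.075 without saline 3 and saline 5. The cause was not tested. The median of the 9 stayed between -0.22 and -0.06.

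Over all genes, 4 passed as reported, 2 with no filter, 2 with no mean-variance trend, and, with a covariate, 1 (Xist), 13 (striatal mean) or 1 (pan-neuronal mean). Leaving out 1 library gave 1 to 11, with 11 when saline 3 and 10 when CFA 1 was dropped, 2 each for saline 2 or saline 4, and 1 each for saline 5 or CFA 6. Without saline 3 and saline 5 it was 6. Voom with TMM scaling, a setting planned at the start, is not reported, because count tools were set aside for a table in FPKM; voom scaled to library size took its place. With the replicate number as a block 1 gene passed; same-numbered libraries share only a number (correlation of their deviations -0.012 to 0.159, and 2 of 6 correlated best with their own number). Of the 12 relations of Chat, 5 passed over 12 libraries, 0 without saline 2 and CFA 2, 1 within saline and 0 within CFA. Within CFA r turned to -0.132 for Ache and -0.105 for Isl1. Fewer libraries entered these settings, and leaving out saline 2 and CFA 2 also narrowed the range of Chat. With a pseudocount of 0.1 the adjusted p of Slc18a3 was 0.0543. Counting error was largest for Chat, Gbx1 and Slc18a3, at 132 to 477 reads per library, but stayed below their spread between libraries.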

Other observations

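Slc18a3 and Chat, which share a locus, did not stand in a fixed ratio. Slc18a3 in FPKM was 1.94 ± 0.415 times Chat in saline (SD, n = 6; 1.35 to 2.38) and 1.53 ± 0.318 times Chat in CFA (SD, n = 6; 0.941 to 1.87). Ratios to Chat were formed for 5 genes, chosen after their values were seen, and compared between groups by a two-sided exact permutation test over all 924 assignments of the libraries. None passed after adjustment over the 5. The smallest p was that of Ngfr, at 3.04 ± 0.242 times Chat in saline and 2.51 ± 0.507 times in CFA (SD, n = 6 each; exact permutation p = 0.0433, adjusted p = 0.157). The others were Lhx8 (2.43 and 2.02 times Chat, exact p = 0.0628, adjusted p = 0.157), Slc18a3 (exact p = 0.102, adjusted p = 0.170), Ache (14.3 and 12.9 times, exact p = 0.422, adjusted p = 0.444) and Slc5a7 (2.32 and 2.18 times, exact p = 0.444, adjusted p = 0.444). The groups overlapped for all 5 ratios.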
